A study of Mus musculus with 6 samples.

Results

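10 transcription factors that set or hold the identity of B cells were followed in peritoneal cavity (PC) B1a cells of mice with and without the interleukin 2 receptor alpha chain. They are Pax5, Ebf1, Spib, Pou2af1, Bcl6, Bach2, Irf8, Ikzf3, Foxo1 and Tcf3. A probe was taken where its gene name in the array files is 1 of these 10 symbols, which found all 10 among 36163 gene names and gave 14 of the 55681 non-control probes, with 1 probe for each of 6 genes and 2 probes for each of 4 genes (Pax5, Bach2, Foxo1 and Tcf3). All 14 probes were well above background on all 6 arrays, none was saturated, and all 14 were among the 24757 probes that could be tested. Where a gene has 2 probes, they are called its brighter and its dimmer probe, by their mean signal.

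RNA came from B1a cells sorted by flow cytometry and was read on 6 Agilent mouse arrays in a single Cy3 channel, 3 arrays per genotype. The mice were 7-week-old C57Bl/6 females. The control genotype was p40-/-CD25+/- and the knockout genotype p40-/-CD25-/-, so that both lack p40 (Il12b, a subunit of interleukins 12 and 23) and the knockout also lacks CD25 (Il2ra), while the control keeps 1 allele of it. The knockout mice are a model of autoimmune cholangitis, the deletion is carried by every cell and not only by B cells, and each sample pooled at least 3 mice. The p-values below therefore measure the spread between 3 pooled samples per genotype.

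A B cell is specified stepwise. Tcf3 (E2A) and Ebf1 open the B-lineage program, Foxo1 acts with them on the genes for receptor rearrangement, and Pax5 then fixes the choice by activating B cell genes and silencing those of other lineages. In mature cells Spib, Pou2af1 and Irf8 support antigen receptor signalling and follicular responses, Bcl6 and Bach2 hold back the plasma cell program, and Ikzf3 (Aiolos) tunes the receptor threshold. B1a cells are a long-lived B cell population of body cavities that makes natural antibody.

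Every value is the log2 processed signal relative to the 75th percentile of its array, and a difference is knockout minus control on that scale. That percentile was 252 to 272 units of processed signal on the control arrays but only 66.5 to 162 on those of the knockout, and 39.7% to 45.9% of spots on the knockout arrays were well above background, against 47.2% to 50.6%. All 6 arrays lay on 1 slide. Il2ra read 1.62, 1.13 and 1.35 on control arrays 1, 2 and 3 and -0.31, -0.59 and 0.86 on knockout arrays 1, 2 and 3, a difference of -1.38 (limma adjusted p = 0.119), and stayed well above background on all 3 knockout arrays, so its probe does not show the deletion as a missing signal. Whether the probe lies in the deleted stretch was not checked. Il12b, deleted in both genotypes, was also above background on all 6 arrays, with a difference of -0.02 (limma adjusted p = 0.957). The B cell markers Cd79a, Cd79b and Ms4a1 were well above background on every array.

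The probes behind the results that follow are shown because different probes of Pax5 and of Bach2 read different stretches of the gene, and because the other 3 genes are each read at a single place. The sequences are those of the array files, 5′ to 3′, with the mm9 coordinates and strand those files give. Whole 60-base probes are printed for the brighter and dimmer probe of Pax5 and the dimmer probe of Bach2, and a stretch of 30 bases for the others. Capitals mark AATAAA, the signal for cutting and polyadenylation near the end of a transcript.
Pax5 brighter probe (chr4:44658421-44658480, minus strand): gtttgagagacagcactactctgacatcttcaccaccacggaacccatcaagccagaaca
Pax5 dimmer probe (between chr4:44550354-44582908, minus strand): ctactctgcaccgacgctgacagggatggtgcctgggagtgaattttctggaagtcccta
Bach2 brighter probe (chr4:32673009-32673068, plus strand): agacgccatttctgttgatgaAATAAAggc
Bach2 dimmer probe (chr4:32588782-32588841, plus strand): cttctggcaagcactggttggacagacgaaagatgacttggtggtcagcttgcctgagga
Irf8 probe (chr8:123280324-123280383, plus strand): atgcaaacagaatccttggagtgtgtgata
Ebf1 probe (chr11:44818438-44818497, plus strand): tatctgggggatatatttattctgtattga
Bcl6 probe (chr16:23965160-23965219, minus strand): tgcgttgtaaaatagagctgtacaaaacat

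The coordinates of the dimmer Pax5 probe span 32555 bases for 60 bases of sequence, so it lies across a splice junction. AATAAA was found, in the orientation of the probe, in 3 of the 14 member probes (21.4%), those of Spib and Pou2af1 and the brighter one of Bach2, against 10.1% of all 60-base probes and 12.2% of the tested ones. The array files list 4 RefSeq transcripts for each of the 2 Tcf3 probes, with none in common. No member probe has more than 4 accessions listed, so these lists may be cut. Whether the 2 Tcf3 probes share transcripts was not checked. Exon and untranslated region annotation in mm9 was not used here.

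**Figure D1:**
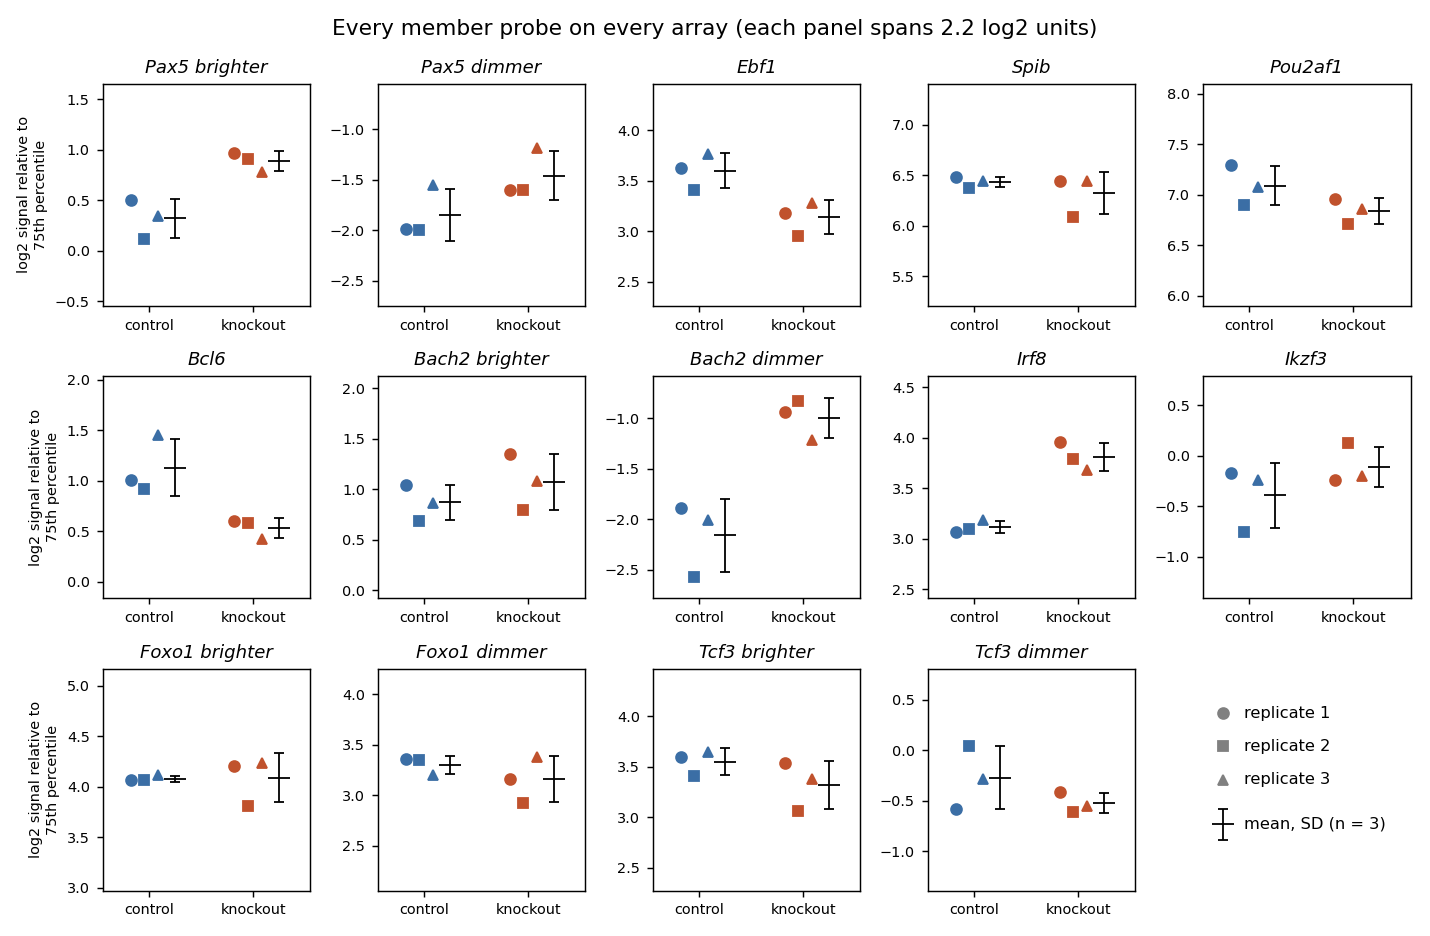
Log2 signal relative to the 75th percentile of the array (vertical axis) for each member probe, with control samples in blue and knockout samples in orange, 1 symbol per replicate, and the mean with its SD (n = 3) in black. The genotypes lie apart without overlap for the brighter Pax5 probe, the dimmer Bach2 probe and Irf8, which were higher in knockout samples, and for Ebf1 and Bcl6, which were lower.

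None of the 14 probes passed a limma adjusted p of 0.05 over all tested probes, where 20 of 24757 probes (0.0808%) did. At an unadjusted limma p under 0.05, 3 of the 14 probes were higher in knockout B1a cells and 2 were lower, where 12.6% of all tested probes were higher and 12% lower. Without overlap between genotypes, 3 probes (21.4%) lay above and 2 (14.3%) below the control samples, against 15.6% and 19.6% of all tested probes. By the thresholds of the study (2-fold, and p up to 0.05 with no adjustment), 1 of the 14 probes was higher (7.14%), the dimmer probe of Bach2, and none was lower, against 2.38% and 1.26% of all tested probes. Counted by the brightest probe of each gene, 5 members were higher and 5 lower, with a median difference of -0.05, and over all 18256 tested genes 7266 were higher and 10990 lower with a median of -0.12. The sign of the members' median changed with the scaling and was 0.09 after quantile normalization. Each of these counts of probes lies within 2 probes of what the share over all probes would give. In bulk RNA, fewer cells of a type and less RNA per cell cannot be told apart.

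**Figure D2:**
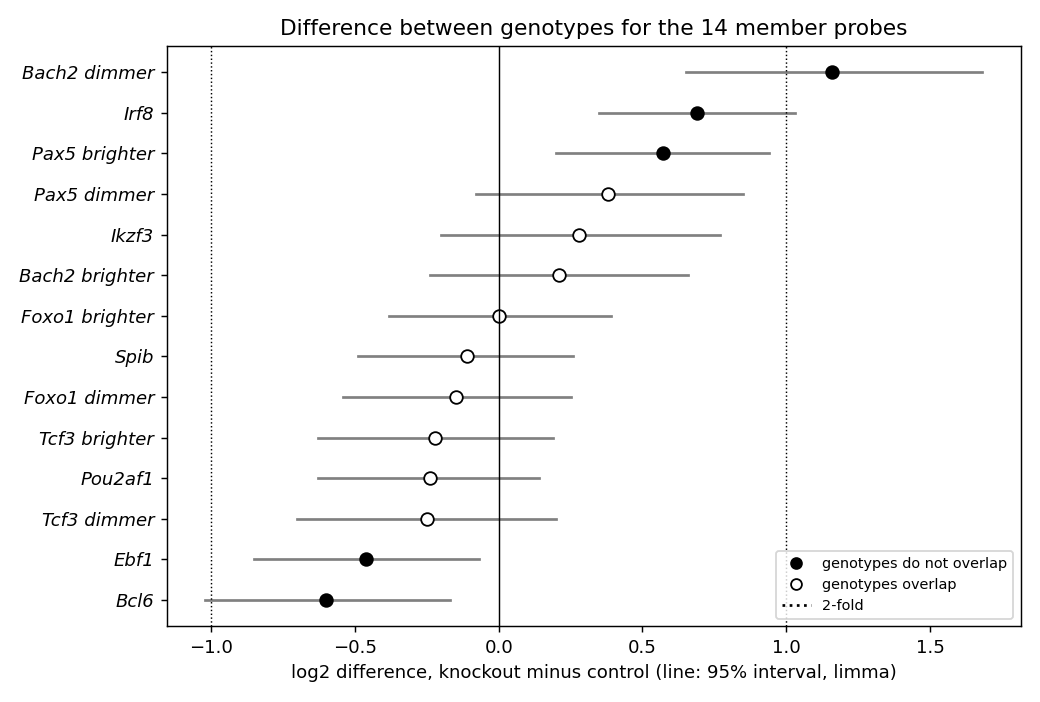
Log2 difference, knockout minus control, for each of the 14 member probes (points) with its 95% interval from limma (lines). Filled points are probes whose genotypes did not overlap, and dotted lines mark 2-fold. The intervals of the brighter Pax5 probe, Irf8 and the dimmer Bach2 probe lie above 0 and those of Ebf1 and Bcl6 below it, before adjustment for the number of probes.

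None of the commitment factors passed the adjusted p. The brighter probe of Pax5, the factor that holds B cells to their lineage, read 0.50, 0.12 and 0.34 in control samples 1, 2 and 3 and 0.97, 0.91 and 0.78 in knockout samples 1, 2 and 3. All 3 knockout values lay above the control values. The difference was 0.57 (1.49-fold, standard error 0.159, 95% interval 0.20 to 0.94, limma adjusted p = 0.121), and 0.35 with normexp background correction at the 75th percentile. Its dimmer probe read -1.99, -2.0 and -1.55 in control and -1.60, -1.60 and -1.19 in knockout samples, with the genotypes overlapping through control sample 3. That difference was 0.38 (95% interval -0.08 to 0.85, limma adjusted p = 0.264), on the same side as the brighter probe. It was 0.25 without knockout sample 3 and 0.20 after quantile normalization. Without control sample 3 it was 0.53, and with normexp background correction at the 75th percentile 0.56.

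Ebf1, the pioneer factor that acts before and together with Pax5, was read by a single probe. It read 3.62, 3.41 and 3.76 in control and 3.18, 2.95 and 3.28 in knockout samples. All knockout values were below all control values, and the difference was -0.46 (1.37-fold lower, standard error 0.167, 95% interval -0.85 to -0.07, limma adjusted p = 0.164). Its size depended on the scaling and was -0.25 after quantile normalization, -0.27 in the deposited values and -0.72 with normexp background correction at the 75th percentile.

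Tcf3 encodes the E proteins E12 and E47, which switch on Ebf1. Its brighter probe read 3.60, 3.41 and 3.64 in control and 3.54, 3.06 and 3.38 in knockout samples, a difference of -0.22 (95% interval -0.63 to 0.19, limma adjusted p = 0.421). Its dimmer probe read -0.58, 0.04 and -0.28 in control and -0.41, -0.61 and -0.55 in knockout samples, a difference of -0.25 (95% interval -0.70 to 0.20, limma adjusted p = 0.410). Both probes gave a small negative difference with overlapping genotypes, and single arrays weighed on it. The brighter probe differed by -0.09 without knockout sample 2, -0.02 after quantile normalization and -0.50 with normexp background correction at the 75th percentile. The dimmer differed by -0.10 without control sample 2 and -0.41 without control sample 1.

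Foxo1, which drives Rag and homing receptor genes and is kept out of the nucleus by PI3K signalling, had the smallest difference of the 10 members by brightest probe in the main setting. The brighter probe read 4.07, 4.07 and 4.12 in control and 4.21, 3.81 and 4.24 in knockout samples, a difference of 0.00 (95% interval -0.38 to 0.39, limma adjusted p = 0.987). The dimmer probe read 3.36, 3.35 and 3.20 in control and 3.16, 2.92 and 3.38 in knockout samples, a difference of -0.15 (95% interval -0.54 to 0.25, limma adjusted p = 0.577), which was -0.26 without knockout sample 3 and -0.03 without knockout sample 2. The genotypes overlapped at both probes, and the sign of each Foxo1 probe turned with the scaling.

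Spib, an Ets factor close to PU.1, read 6.48, 6.37 and 6.44 in control and 6.44, 6.08 and 6.44 in knockout samples, a difference of -0.11 (95% interval -0.49 to 0.26, limma adjusted p = 0.661). The value of knockout sample 2 was the lowest, and without it the difference was 0.01. With normexp background correction at the 75th percentile the difference was -0.45. Pou2af1 (OBF-1), the coactivator of the octamer factors on immunoglobulin promoters, read 7.29, 6.90 and 7.08 in control and 6.96, 6.71 and 6.86 in knockout samples. The genotypes overlapped and the difference was -0.24 (95% interval -0.63 to 0.14, limma adjusted p = 0.358). With 1 array left out it was -0.34 to -0.14, and with normexp background correction at the 75th percentile -0.56.

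Irf8, an interferon regulatory factor that acts with PU.1 and Spib in B cells and is also made by macrophages and dendritic cells, had the smallest p of the members when each was read by its brightest probe. It read 3.07, 3.10 and 3.19 in control and 3.96, 3.79 and 3.68 in knockout samples, with every knockout value above every control value and an SD of 0.06 among the controls and 0.14 among the knockouts. The difference was 0.69 (1.61-fold, standard error 0.146, 95% interval 0.35 to 1.03, limma adjusted p = 0.0959). It kept its sign in all 20 alternatives run for it and ranged from 0.39 to 0.89 among them. Before scaling, its processed signal was 2220, 2160 and 2470 on the control and 2040, 917 and 2070 on the knockout arrays, so the difference is one relative to the other probes of an array. Markers of those other cells are given further on. All 5 macrophage genes above background on all 6 arrays had a negative difference, as did 10990 of all 18256 tested genes. Siglech, the single dendritic cell marker that could be tested, was higher. The part of these cells in the Irf8 value was not tested.

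Bcl6, the repressor that germinal centre B cells need, read 1.01, 0.92 and 1.45 in control and 0.60, 0.58 and 0.42 in knockout samples, without overlap. The difference was -0.60 (1.51-fold lower, standard error 0.182, 95% interval -1.02 to -0.17, limma adjusted p = 0.133), and it kept its sign in the 20 alternatives run for it. Bcl6 was also chosen by the study on these samples.

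Bach2, a repressor of Prdm1 that binds with small Maf proteins, was read by 2 probes, each with a positive difference. The brighter probe read 1.04, 0.69 and 0.86 in control and 1.35, 0.79 and 1.08 in knockout samples, which overlap, a difference of 0.21 (95% interval -0.24 to 0.66, limma adjusted p = 0.494), and 0.07 without knockout sample 1. The dimmer probe read -1.89, -2.57 and -2.01 in control and -0.94, -0.83 and -1.22 in knockout samples. All knockout values lay above the controls, with a difference of 1.16 (2.24-fold, standard error 0.221, 95% interval 0.65 to 1.68, limma adjusted p = 0.0888). This was the sole member probe past the 2-fold thresholds, and without control sample 2 its difference was 0.95, under 2-fold. With normexp background correction it was 0.89 at the 75th percentile and 0.56 after quantile normalization, where the brighter probe was at 0.08 and 0.27. Unscaled, it read 70.9, 42.4 and 67.6 units on the control and 68.3, 37.5 and 69.3 on the knockout arrays, nearly equal values on arrays whose 75th percentiles differed. Among all tested probes the median difference was 0.11 in the dimmest quartile by mean signal, 0.02 in the quartile that holds this probe, and -0.18 and -0.19 in the brighter quartiles, so dim probes as a whole read higher in knockout samples than bright ones. In the quartile of this probe 2.68% of 6189 probes were at least 2-fold higher at that p, and what part dimness has in the Bach2 value was not tested.

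Ikzf3, the lymphocyte zinc finger factor Aiolos, read -0.17, -0.75 and -0.24 in control and -0.24, 0.13 and -0.20 in knockout samples. The genotypes overlapped and the difference was 0.28 (95% interval -0.20 to 0.77, limma adjusted p = 0.391). Without control sample 2 it was 0.10.

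For genes with 2 probes, the log ratio of the dimmer over the brighter probe on the same array is free of any constant per array, though not of quantile normalization or background correction. For Bach2 this ratio was -2.93, -3.27 and -2.87 on control and -2.29, -1.61 and -2.30 on knockout arrays, a difference of 0.96 without overlap (two-sided exact permutation p = 0.1, the smallest that 3 arrays against 3 allow, and 0.4 after Benjamini-Hochberg adjustment over the 4 genes). The 2 Bach2 probes lie 84167 bases apart, with the dimmer one nearer the start of the gene. For Pax5, whose probes lie 75512 bases apart, the ratio differed by -0.19 (exact permutation p = 0.5). For Foxo1 and Tcf3 the ratio differed by -0.15 (exact permutation p = 0.3) and -0.03 (exact permutation p = 0.8). In the main setting, only for Bach2 did the 2 probes of a gene separate the genotypes by different amounts without overlap. With normexp and quantile normalization its dimmer probe differed by 0.56 and its brighter one by 0.27. The median difference over all tested probes was 0.02 in the quartile of the dimmer Bach2 probe and -0.18 in that of the brighter one. What part dimness has in this ratio was not tested.

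The members with separate genotypes can also be set against each other on each array, again free of a constant per array, and these ratios were chosen after the values were seen and carry no test. Pax5 (brighter probe) minus Ebf1 was -3.13, -3.29 and -3.42 on control arrays and -2.21, -2.04 and -2.50 on knockout arrays, a difference of 1.03 log2 units or 2.04-fold. Pax5 minus Bcl6 was -0.81 ± 0.30 in control and 0.36 ± 0.02 in knockout samples (SD, n = 3), a difference of 1.17. Irf8 minus Ebf1 differed by 1.15, and Irf8 minus Bcl6 by 1.29, with 1.99 ± 0.23 in control and 3.28 ± 0.08 in knockout samples (SD, n = 3). The ratio of Pax5 or Irf8 to Ebf1 or Bcl6 was higher on every knockout array than on any control array, which the choice of members with separate genotypes fixes in advance.

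**Figure D3:**
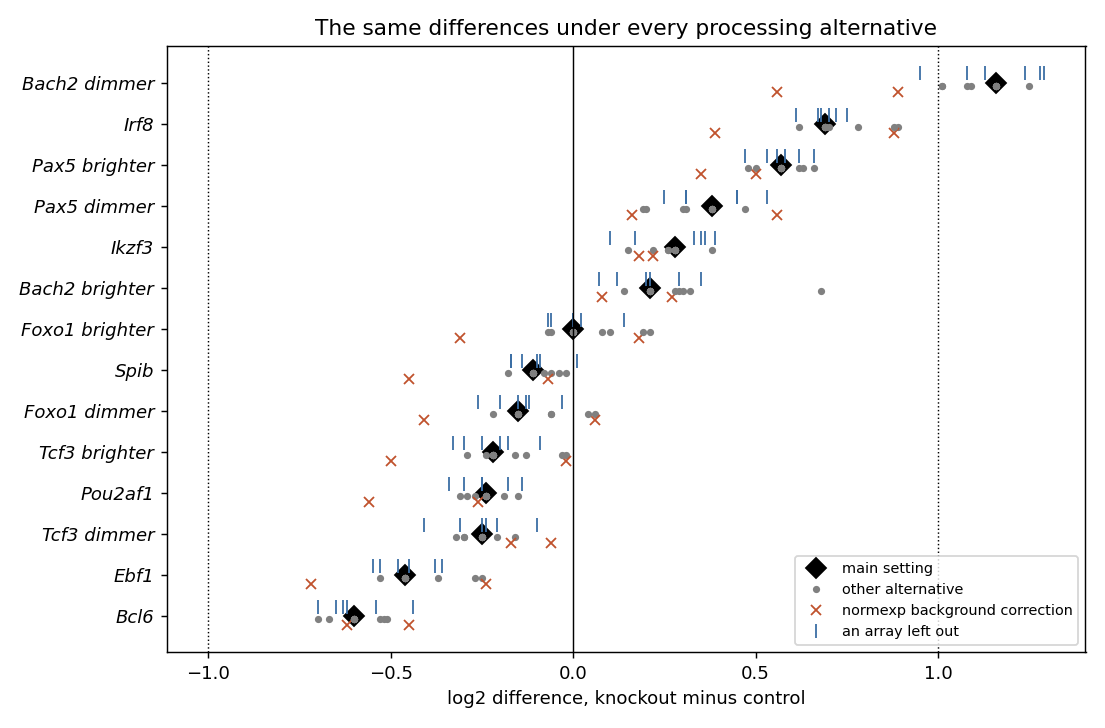
Log2 difference, knockout minus control (horizontal axis), of each member probe under the main setting (diamonds), with 1 array left out (blue bars), with normexp background correction (orange crosses) and under the other alternatives (grey dots). The points of both Foxo1 probes and of Spib lie on both sides of 0, and those of the other probes on 1 side.

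The families and partners of the members were read from a list of 43 genes, of which 30 were tested. None passed the limma adjusted p, 7 were higher and 23 lower, and the median of -0.13 lay by that of all genes. With normexp at the 75th percentile the list median was -0.36, where the median over all probes was 0. By the brightest probe, genotypes did not overlap for 3 higher (10% of the 30) and 5 lower genes (16.7%), against 14.7% and 21.6% of all tested genes. Of the 29 above background on all 6 arrays, 7 were higher and 22 lower. Id2, which binds E proteins such as those of Tcf3 and keeps them from DNA, read 0.30, -0.23 and 0.56 in control and 0.75, 0.93 and 1.55 in knockout samples, a difference of 0.86 (limma adjusted p = 0.141). Ikzf4 (Eos), a relative of Ikzf3, differed by 0.62 (limma adjusted p = 0.152), and by 0.21 with normexp and quantile normalization. Bach1, the relative of Bach2, differed by -0.53 (limma adjusted p = 0.147), and Cbfb, the partner of the Runx factors, by -0.46 (limma adjusted p = 0.142), or -0.30 after quantile normalization. The other genes without overlap, named after their values were seen, were Bhlhe41, a factor that B1a cells depend on (0.55), Ikzf5 (-0.45), Tcf12 (-0.39) and Ikzf1 (-0.26).

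Genes that Pax5, Ebf1 and their partners activate were tested for 17 of 20. Of these 7 were higher and 10 lower (6 and 10 of the 16 above background on all 6 arrays), none by the adjusted p. The median was -0.07, and -0.23 with normexp at the 75th percentile. Cd72, a coreceptor that dampens antigen receptor signals and a gene that the study also chose on these samples, read 1.92, 0.93 and 1.47 in control and 3.16, 2.72 and 2.69 in knockout samples, a difference of 1.42 (limma adjusted p = 0.0888). Cd79b, the signalling chain of the receptor, differed by 0.28 (limma adjusted p = 0.291), a sign that turned to -0.18 after quantile normalization. Vpreb1, part of the surrogate light chain and a target of Ebf1 and Tcf3 in precursor cells, read -0.83, -0.82 and -0.51 in control and -1.67, -1.37 and -1.17 in knockout samples, a difference of -0.68 (limma adjusted p = 0.121), or -0.23 with normexp at the 75th percentile. Fcrla differed by -0.44 (limma adjusted p = 0.250), and by -0.21 without knockout sample 2. The B cell genes Cd79a (-0.05) and Ms4a1 (-0.07) overlapped between genotypes, and the sign of these small differences was not kept under every alternative. Genes of other lineages that Pax5 represses were tested for 4 of 6, of which 2 were higher and 2 lower, all with overlap.

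Of 13 Foxo1 targets 10 were tested, 3 higher and 7 lower, with a median of -0.14 and none past the adjusted p. The median was -0.42 with normexp at the 75th percentile and -0.01 with averaged probes. Ccr7, the receptor that guides lymphocytes to lymph nodes, read 5.04, 4.57 and 4.86 in control and 5.39, 5.28 and 5.76 in knockout samples, a difference of 0.65 (limma adjusted p = 0.132), or 0.34 with normexp at the 75th percentile. Ctla4, an inhibitory receptor that the study also chose on these samples, differed by -0.44 (limma adjusted p = 0.201).

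Genes of the plasma cell program, which Pax5, Bcl6 and Bach2 oppose, were read from a further list. Some are regulators and some, such as Igj and Sdc1, are products of plasma cells. Of 12 listed, 9 were tested, and all 8 that were above background on all 6 arrays had a negative difference. Among them were Ell2 (-0.04) and Zbtb32 (-0.18). The ninth, Sdc1, was above background on control arrays alone, so that the filter on dim probes had set its direction. Over all 18256 tested genes 10990 were lower, and in the brighter quartiles of tested probes only 29.8% and 29.6% were higher. The median was -0.48 over the 9 and -0.44 without Sdc1, against -0.12 over all genes. Without overlap, 3 of the 9 were lower (33.3%), against 21.6% of all tested genes, and none passed the adjusted p. The median was -0.23 without knockout sample 2, -0.24 with normexp and quantile normalization and -0.27 with array weights. Igj, the joining chain of IgM and IgA, read 2.91, 2.29 and 2.47 in control and 0.42, -0.55 and 2.04 in knockout samples, a difference of -1.92 (limma adjusted p = 0.133) in which knockout sample 3 lay near the controls. Without that sample it was -2.62 (limma adjusted p = 0.0441), and over all alternatives it ranged from -2.62 to -1.33. Creb3l2, a factor of the secretory pathway, differed by -0.55 (limma adjusted p = 0.140), and Xbp1, which expands that pathway and was named after its values were seen, by -0.52. Prdm1 (Blimp-1), the gene that Bcl6 and Bach2 repress, read 0.45, 0.82 and 0.51 in control and 0.67, -0.57 and 0.24 in knockout samples, a difference of -0.48 with overlap (limma adjusted p = 0.343) that was -0.14 without knockout sample 2. Irf4, which rises in plasma cells and competes with Irf8, differed by -0.30 (limma adjusted p = 0.289), also with overlap, and by -0.10 after quantile normalization. Prdm1 and Irf4 were named after their values were seen.

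**Figure D4:**
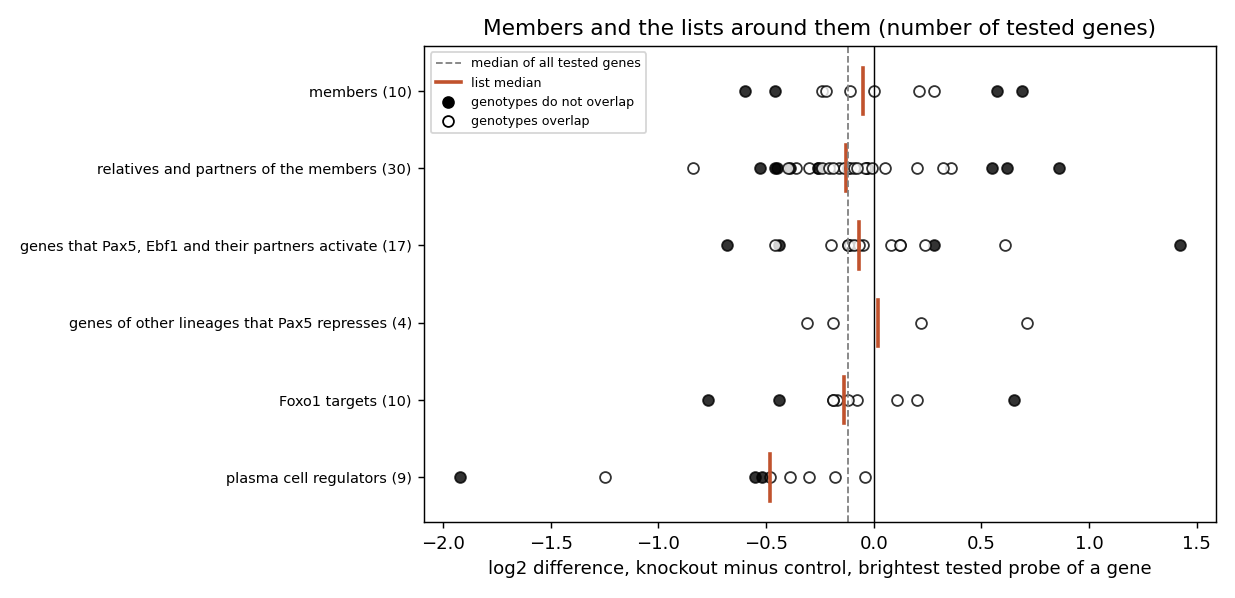
Log2 difference, knockout minus control (horizontal axis), of each tested gene by its brightest probe, for the 10 members and the 5 lists around them, with the number of tested genes in brackets. Filled points are genes whose genotypes did not overlap, orange bars are list medians and the dashed line is the median of all tested genes (-0.12). The list of plasma cell genes, labelled regulators, lies to the left of 0, and the members spread evenly on both sides.

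Markers of other cells were read beside the members, as signal relative to the 75th percentile summed over the tested genes of a list. Of all 18256 tested genes 10990 were lower in knockout samples, the share beside which counts of lower markers stand. Of 8 macrophage markers on the array 6 were tested, and the 5 that were above background on all 6 arrays had a negative difference, with a summed level of 14.2 to 25.3 in control and 11.4 to 22.1 in knockout samples. Knockout sample 2 stood apart among the knockouts, with Emr1 at 2.6 (1.6 and 1.9 in knockout samples 1 and 3), Csf1r at 3.35 (2.39 and 2.43) and Cd14 at 1.44 (-0.07 and -0.63). The defining genes Emr1 and Lyz2 differed by -0.16 and -1.08, both with overlap. Of 9 T cell markers 6 were tested, and of the 5 above background on all 6 arrays 4 were higher and 1 lower, with summed levels of 5.50 to 6.55 and 6.36 to 7.70. Cd3e differed by 0.60 without overlap and Cd4 by 0.33 with overlap. Cd3d, which read -2.10, -3.30 and -2.78 in control and -2.54, -1.14 and -0.28 in knockout samples, differed by 1.41 (2.65-fold, limma adjusted p = 0.189) and Cd3g by -0.28, both with overlap and both named after their values were seen, while Cd8a was above background on 1 knockout array. Of the dendritic cell markers Siglech alone was tested, and it read 6.00, 6.05 and 5.93 in control and 6.33, 6.99 and 6.17 in knockout samples, a difference of 0.50 without overlap (limma adjusted p = 0.222). Of the other dendritic cell markers, Flt3 was above background on 1 control array, Zbtb46 on 1 knockout array and Xcr1 on none. None of 4 NK cell markers was tested, and both tested granulocyte and mast cell markers, Cpa3 and Mcpt4, entered through the control arrays alone, so that no direction is read from them. Of 5 plasma cell markers 4 were tested, and the 3 above background on all 6 arrays had a negative difference, with summed levels over the 4 of 44.5 to 53.6 and 26.4 to 37.2. Of 5 markers of B1a cells 3 were higher (Itgam 0.79 and Bhlhe41 0.55 without overlap, Spn 0.42), with Itgam, which macrophages also make, at 5.86 in knockout sample 2 against 4.73 and 4.40 in knockout samples 1 and 3, and 2 lower (Cd9 -0.48 without overlap, Cd5 -0.23), and of the 2 B2 cell markers above background on all 6 arrays Cr2 differed by 0.24 and Cxcr5 by -0.09. The part of other cell types in the member values was not tested.

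The pattern of Irf8 over the 6 arrays was most closely matched, by Pearson r among 15670 genes well above background on all arrays, by Aym1 (r = 0.9924) and a probe for a noncoding transcript on chromosome 1 (r = 0.9918). Aym1 read -0.91, -0.78 and -0.79 in control and 0.26, -0.07 and -0.06 in knockout samples, a difference of 0.87. The 6 arrays share the split into genotypes and the scaling, so the correlation is a description of these arrays, and 4 genes exceeded an r of 0.99.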

How the data were processed

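Spot intensities of 6 arrays were used, as deposited by the authors from Agilent Feature Extraction 10.7.1.1 (version per the submitters' processing notes), background subtracted and detrended on each array and not scaled between arrays. A deposited table of log2 values, whose sorted columns differ by at most 0.000545 and which is thus quantile normalized, served as an alternative. Groups follow the genotype in the labels. Processed signals were put on the log2 scale and centred on the 75th percentile of their array, over its 59305 non-control spots. Outlier spots were dropped before spots of a probe were averaged. Testing required a probe to be well above background on all 3 arrays of either genotype, with values on 2 or more arrays of each. Every probe had its own fit in limma 3.58.1 (lmFit and eBayes, R 4.3.3) with genotype as the single term. Benjamini-Hochberg adjustment ran over all tested probes, also where a gene is read by its brightest tested probe. With 3 arrays per genotype, the number of arrays limits the precision. The steps were tested on simulated data.

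All members and all probes are named, and of each list the 2 genes highest and the 2 lowest in knockout samples by difference, among those above background on all 6 arrays and without overlap, with the defining markers. Some genes that this rule names are not reported here. The members and lists were chosen with earlier results of these data known. Symbols follow the array files, and the 14 member probes were matched to RefSeq by accession. Replicate numbers of both genotypes were checked for pairing by the correlation of deviations from the group means, which was 0.06 to 0.17, not over 0.1 throughout, so no block was used. Alternatives covered scaling, background correction, the deposited log2 values, the probe filter, outlier spots, probe summaries, the test, array weights, the replicate block and each array left out.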

Additional observations from a re-analysis of the deposited data

How the results depend on the processing

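Over the 14 member probes and the alternatives run for each, 261 values kept their direction and their side of the limma adjusted p of 0.05, 8 passed it, none was lost and 11 turned. With normexp background correction before the 75th percentile, 5 members passed the adjusted p (Bach2 and Pax5 by their dimmer probes alone, Pou2af1, Bcl6 and Ebf1), but so did 37.7% of all tested probes, none passed the 2-fold thresholds, and the median of the members was -0.38. With normexp and quantile normalization 1 member passed the adjusted p (Irf8, adjusted p = 0.0483), as did 0.222% of all tested probes, none the 2-fold thresholds, and the median was 0.08. With a trend and robust estimation 2 members passed it (Bach2 by its dimmer probe alone, adjusted p = 0.0363, and Irf8, adjusted p = 0.0241), as did 3.96% of all tested probes. With each gene read by its brightest probe or by its averaged probes, 0 members passed the 2-fold thresholds. With 1 array left out, 0 members passed the adjusted p, 0 to 1 the 2-fold thresholds (0 without control sample 2), and the median was -0.12 to 0.08, positive without knockout sample 2. The median also turned to 0.09 with quantile normalization, 0.04 with scaling on the median of detected probes, 0.08 with the deposited log2 values and 0.02 with array weights. The causes were not tested.

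The dimmer Foxo1 probe turned to 0.06 with quantile normalization, to 0.06 with normexp before it and to 0.04 with the deposited values. The brighter one turned to -0.06 relative to B cell genes, -0.31 with normexp before the 75th percentile, and -0.07 with averaged probes, and was -0.07 to 0.14 with 1 array left out. Spib was -0.17 to 0.01 with 1 array left out. Cd79b turned to -0.18, -0.06, -0.19 and -0.18 with quantile normalization, normexp with the 75th percentile, normexp with quantile normalization and the deposited values. Ms4a1 turned to 0.02 with scaling on detected probes, and Cd79a to 0.04 with that scaling and with averaged probes, and was -0.14 to 0.01 with 1 array left out. The list medians turned to 0.02 for genes activated by Pax5 and Ebf1 (detected probes), to -0.05 and -0.25 for genes Pax5 represses (B cell genes, array weights; -0.09 to 0.09 with 1 array left out) and were -0.22 to 0.02 for relatives and partners with 1 array left out. Of the named list genes, Cd72 passed the adjusted p with trend and robust estimation (0.0196) and array weights (0.0449), Igj without knockout sample 3 (0.0441), and several with normexp and the 75th percentile. Over all probes 20 passed the adjusted p, and with 1 array left out 2 (without control sample 2 or 3) to 136 (without knockout sample 3).

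With the replicate number as a block, 0 members passed the adjusted p, 1 passed the 2-fold thresholds and the median was -0.05, while over all probes 1 passed the adjusted p. The share of higher probes among those past the 2-fold thresholds was 65.4%, against 44.4% with quantile normalization, 43.2% in the deposited values, 78.4% with detected probes, 81.2% with normexp and quantile normalization, 84.5% for probes above background on all 6 arrays and 98.2% with no filter on dim probes. The count of probes past the adjusted p ranged from 1 (the methods' t-test, replicate block) to 9334. The slide was not run as a block, since all 6 arrays share 1 slide. Signal over background limits dim probes, and the dimmer probes of Pax5 and Bach2 had the lowest mean signals of the 14, with 22.0 to 93.1 units of processed signal.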

Other observations

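On the array of knockout sample 3, 3 markers of T and NK cells that were below background on the other 5 arrays were above it. Cd8a read -3.06 there and -4.65 to -6.43 on the other arrays, Cd8b1 -1.65 against -4.64 to -5.70, and Eomes -2.52 against -4.08 to -6.03. The other markers on the lists of 9 T cell and 4 NK cell genes were mixed. Among knockout samples, Cd3d (-0.28) and Tcf7 (0.12) were highest there, but Cd4 (0.79), Cd247 (-4.33), Ncr1 and Klrk1 (-5.86 each) were lowest. The last 3 were not well above background on any knockout array. The part of these cells in the member values was not tested. In that sample Irf8 read 3.68 (3.96 and 3.79 in knockout samples 1 and 2), Bcl6 0.42 (0.60 and 0.58), the dimmer Bach2 probe -1.22 (-0.94 and -0.83) and the dimmer Pax5 probe -1.19 (-1.60 in both).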
